A study of Drosophila melanogaster with 3 samples.

Results

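The Polycomb and trithorax group genes described here were 31 protein-coding genes chosen by symbol from the 13968 protein-coding genes of the Ensembl annotation. All 31 were found, 30 under the listed symbol and calypso under its present symbol caly. They comprise 18 Polycomb group genes, which encode the complexes PRC1, PRC2, PhoRC with Scm, and PR-DUB, and 13 trithorax group genes, which encode chromatin remodellers, histone methyltransferases and their partners, Mediator kinase module subunits and a bromodomain protein. The readout was chromatin immunoprecipitation sequencing of su(Hw), a zinc finger protein best known for binding the gypsy insulator of Drosophila melanogaster. Embryos aged 0 to 24 hours and of both sexes came from a transgenic line in which su(Hw) carries enhanced GFP at its C terminus. Precipitation was with an antibody against GFP, per the sample descriptions, while the labels' antibody entry reads su(Hw). All 3 samples were biological replicates of this 1 line, with no second condition, and whether untagged su(Hw) was also present is not given in the sources used here.

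Polycomb group proteins keep developmental genes silent once they have been turned off: PRC2 methylates histone H3, PRC1 binds the methylated chromatin and ubiquitinates histone H2A, and PhoRC brings the complexes to DNA. Trithorax group proteins counteract them, by remodelling nucleosomes, methylating histone H3 at active genes or coupling enhancers to the transcription machinery. Insulator proteins such as su(Hw) separate regulatory regions along the chromosome, and the question addressed here is where su(Hw) sat at the genes that encode the Polycomb and trithorax proteins.

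The unit of measurement was the summit, the base at which a deposited peak is highest. The thresholded list held 6127 peaks, ranked by the peak caller's signal from 1 (strongest) to 6127, and each replicate had its own list of 30000 peaks, weak ones included. A gene was counted as holding a summit of this list if the summit fell inside the gene or no more than 1 kb outside it. Its own promoter window ran from 1000 bp upstream to 100 bp downstream of any of its transcript starts. A replicate peak was matched to a summit when no more than 200 bp apart, and called top-ranked when its rank in that replicate was 6127 or better. Because whole embryos were used, strong binding in few cells and weak binding in many cannot be told apart.

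A summit was found at 17 of the 31 genes, and the 29 summits at these genes ranked from 325 to 5915. The windows that carry the sequences described below are shown first. Each runs 100 bases to either side of the summit, read from the plus strand of the dm6 build in the RefSeq genome sequence. Capitals mark a match of 12 bases to the su(Hw) consensus, either exact or with 1 mismatch. The intronic summit of trx with rank 1301, at chr3R:14278510-14278710, was the only one of the 29 with an exact match, and the intronic summit of ph-p with rank 2055, at chrX:2135282-2135482, was the strongest with 1 mismatch.
trx, rank 1301: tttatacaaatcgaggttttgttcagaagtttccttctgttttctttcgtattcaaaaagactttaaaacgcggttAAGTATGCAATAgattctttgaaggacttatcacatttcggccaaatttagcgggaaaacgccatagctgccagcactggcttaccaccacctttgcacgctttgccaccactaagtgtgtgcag
ph-p, rank 2055: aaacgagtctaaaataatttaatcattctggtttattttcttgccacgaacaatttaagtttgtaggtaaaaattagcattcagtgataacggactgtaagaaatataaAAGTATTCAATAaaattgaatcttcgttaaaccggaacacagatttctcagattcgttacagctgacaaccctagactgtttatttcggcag

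The strongest summits at these genes did not hold the consensus, even with 1 mismatch, and the windows of the first 2 by rank are shown for contrast. They are the summit beside ash1 with rank 325, at chr3L:19590525-19590725, and the promoter summit of ph-p with rank 624, at chrX:2137236-2137436.
ash1, rank 325: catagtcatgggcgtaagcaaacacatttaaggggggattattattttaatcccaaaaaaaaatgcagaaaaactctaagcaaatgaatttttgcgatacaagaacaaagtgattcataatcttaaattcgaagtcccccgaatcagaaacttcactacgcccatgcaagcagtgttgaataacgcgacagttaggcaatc
ph-p, rank 624: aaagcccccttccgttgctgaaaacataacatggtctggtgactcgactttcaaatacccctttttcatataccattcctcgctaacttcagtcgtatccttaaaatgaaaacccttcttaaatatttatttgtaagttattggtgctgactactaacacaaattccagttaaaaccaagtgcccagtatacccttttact

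A last window illustrates the sequence pair searched as that of another insulator protein, BEAF-32. The summit of trr with rank 2421 is base 101 of the 191 bases at chrX:1890065-1890255, which end where an untranslated region begins. Capitals mark TATCGATA. This word reads CGATA on both strands and so counts as a pair.
trr, rank 2421: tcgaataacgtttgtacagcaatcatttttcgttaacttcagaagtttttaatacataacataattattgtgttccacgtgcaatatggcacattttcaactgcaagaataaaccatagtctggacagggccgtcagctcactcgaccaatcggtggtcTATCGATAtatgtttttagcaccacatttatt

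The share of genes with a summit was 54.8% for the Polycomb and trithorax genes (17 of 31, exact binomial 95% interval 36 to 72.7) and 37.1% for all protein-coding genes (5182 of 13968). A summit in the gene's own promoter window was present at 15 of the 31 (48.4%, interval 30.2 to 66.9), against 26.4% of all protein-coding genes. A summit inside the gene or within 1 kb that was top-ranked in all 3 replicates was also at 15 of the 31 (48.4%), against 28.6% of all protein-coding genes. These are not the same 15 genes. A summit top-ranked in all 3 replicates lay in the own promoter window of 11 genes, against 18.9% of all protein-coding genes. The interval of the 54.8% share holds its value over all genes, 37.1%. Those of the 2 shares of 48.4% lie above their own values over all genes, 26.4% and 28.6%. This is no test, since the genes were listed with earlier results of these data known. The intervals cover counting error only and treat genes as independent, which neighbours such as ph-d and ph-p are not.

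These genes were long, with a median length of 7560 bp, against 2164.5 bp for all protein-coding genes, and long genes offer more sequence to hold a summit. Among genes under 5 kb, 4 of 12 Polycomb and trithorax genes had a summit (33.3%), against 30.1% of all genes of that length. Among genes of 5 to 20 kb the count was 8 of 14 (57.1%), against 54.4%. Only over 20 kb was the gap wide, with 5 of 5 genes (kis, skd, osa, fs(1)h and trx), against 66.7% of all such genes. Own promoter windows, of which a gene has as many as it has starts, gave 33.3% against 23.3% under 5 kb, 50% against 36.2% from 5 to 20 kb, and 80% against 34.2% over 20 kb.

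A start on the opposite strand of another protein-coding gene lay in the promoter window of 18 of the 31 genes (58.1%), against 36.3% of all protein-coding genes. A summit in a window shared in this way can count for both neighbours. Among genes with such a head-to-head start, 10 of the 18 had a summit in their own promoter window (55.6%), against 44.6% of all such genes. Among genes without it the count was 5 of 13 (38.5%), against 16%. The share at own promoters was thus higher than that of all genes in both strata, over small numbers of genes and without a test.

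**Figure D1:**
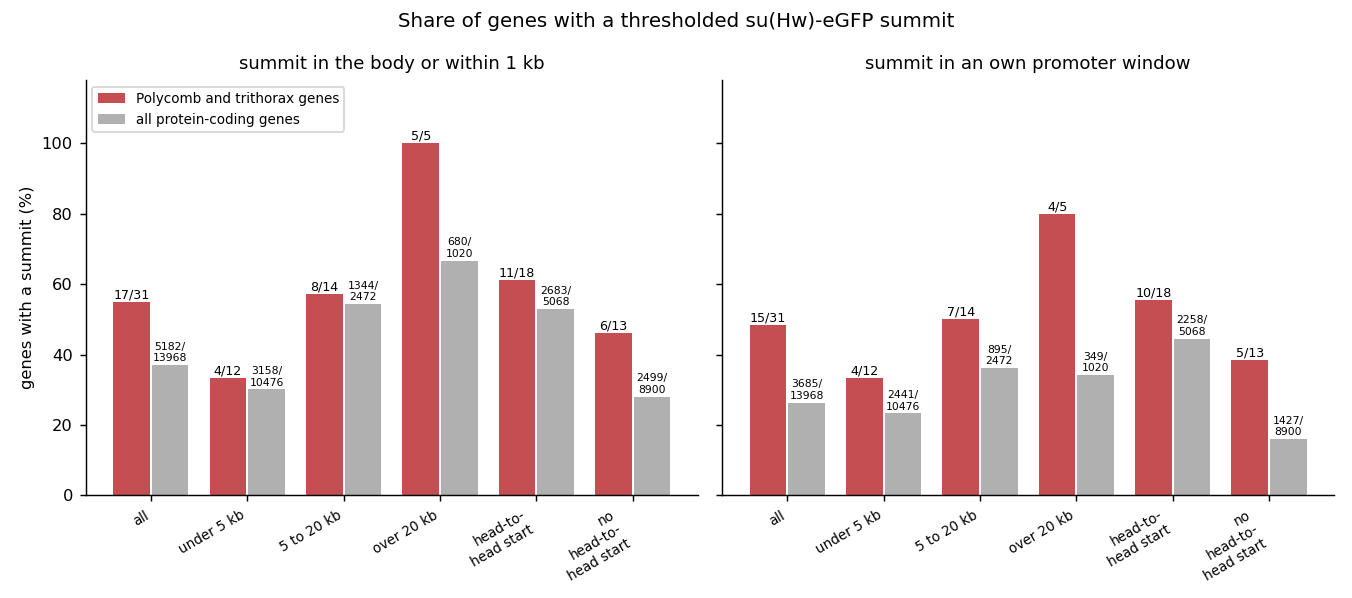
Percent of genes with a thresholded su(Hw)-eGFP summit in the body or within 1 kb (left) and in an own promoter window (right), for Polycomb and trithorax genes (red) and all protein-coding genes (grey), with the counts above the bars. The left pair for all genes stands at 54.8% and 37.1%, and in the left panel the pairs for genes up to 20 kb lie close together.

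The strongest summit of a gene had a median rank of 2381 over the 17 Polycomb and trithorax genes with one and 2563 over the 5182 genes with one, and both groups had a median of 1 summit per such gene. The median pooled signal was 489 for the 29 summits and 405 for all 6127, on the peak caller's own scale. Of the 29 summits, 8 ranked 938 or better (27.6%), a range that holds 15.3% of the list. At rank 1301 or better there were 12 (41.4%, against 21.2% of the list). Cuts near these gave similar gaps, with 34.5% against 17.1% at rank 1050 or better and 44.8% against 25.6% at rank 1567 or better. The gap was not present at every cut, with 6.9% against 10.2% at rank 624 or better and 69% against 67.5% at rank 4137 or better. The cuts are ranks of these summits, set after the values were seen. The first 8 lay at ash1, ph-p, osa, brm, trx, ph-d and Su(z)12, of which osa had 2.

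By chromosome, a summit was present at all 4 of the genes on X, against 36.2% of all protein-coding genes there, and at 7 of 8 on 3L, against 39.2%. It was present at 3 of 8 on 3R and 2 of 5 on 2R, against 38% of all genes on each, at 1 of 5 on 2L, against 34.3%, and at none of 1 on chromosome 4, against 26.2%. With so few genes per chromosome these counts are a description.

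**Figure D2:**
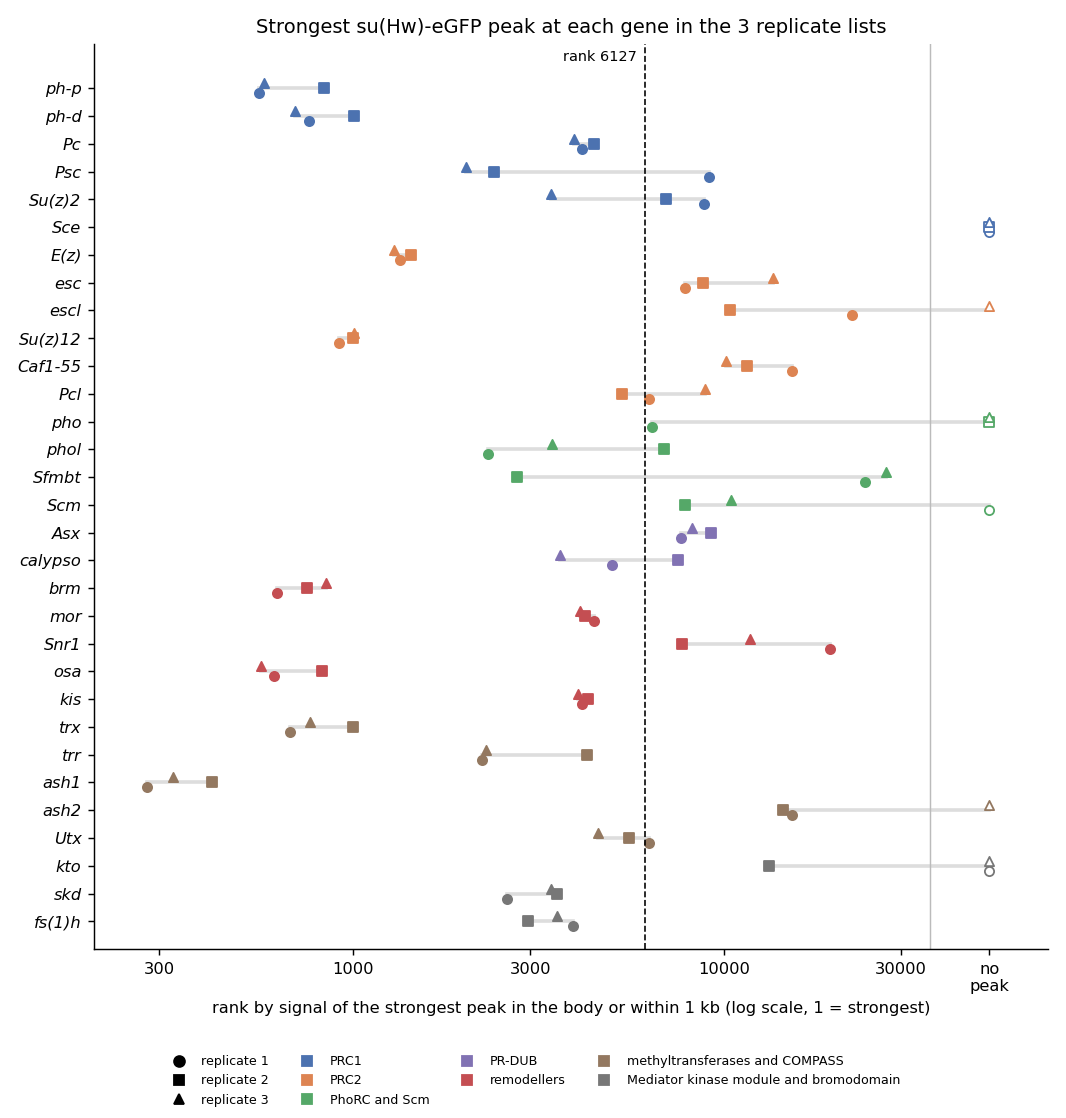
Rank of the strongest peak in the body or within 1 kb of each of the 31 genes in the lists of replicates 1, 2 and 3 (circles, squares and triangles) on a log scale, coloured by complex, with open symbols for no peak. ash1 lies at ranks 278, 416 and 327, and 14 genes lie left of the dashed line at rank 6127 in all 3 replicates.

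PRC1, the complex that binds methylated chromatin and ubiquitinates histone H2A, had a summit at 4 of its 6 genes and 8 summits in all. The counts by complex, here and below, cover few genes each and stand beside 37.1% of all protein-coding genes. That share was 30.1% under 5 kb, 54.4% from 5 to 20 kb and 66.7% over 20 kb. Differences between complexes were not tested. The neighbouring paralogues ph-p and ph-d, which encode the SAM domain subunits through which PRC1 assembles into larger bodies, held 6 of these. In ph-p (chromosome X, 2126210 to 2138371, minus strand, dm6) the strongest summit, rank 624, lay inside the gene, 481 bp upstream of 1 of its 3 transcript starts. Its matched peaks ranked 555, 834 and 575 in replicates 1, 2 and 3, with signals of 450.1, 324.8 and 792.0 on each list's own scale. A further summit of ph-p with rank 1050 lay in a non-coding exon stretch 386 bp downstream of a start, with replicate ranks of 860, 1305 and 888. The intronic one, rank 2055, had replicate ranks of 2630, 2486 and 1877, and thus all 3 summits were top-ranked in every replicate.

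At ph-d (X, 2115727 to 2123286, minus strand) the summits with ranks 773 and 1021 lay 789 and 988 bp upstream of its start, in the same peak interval and 199 bp apart. Replicate 2 separated them, at ranks 1004 and 1429, whereas replicates 1 and 3 had a single peak matched to both, at ranks 758 and 695. Those 2 replicates therefore do not tell the summits apart. Both fell in the 2923 bp between ph-d and ph-p, nearer to ph-d. A weak summit with rank 5895 lay 40 bp inside ph-d, at ranks 4055, 14119 and 5666, so replicate 2 placed it far below the top. Because the 2 genes arose by duplication, the windows were searched for shared words of 30 bases. Of the 29 windows, 28 held no such word anywhere else in the genome, and the weak ph-d window had 4 of its 172 words (2.33%) also in ph-p.

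Pc encodes the chromodomain protein that reads methylated histone H3. Its summit, rank 3670, lay 62 bp upstream of the start, in a window shared with the small GTPase gene Rab26, and ranked 4136, 4451 and 3942 in the 3 replicates. Su(z)2, a RING finger paralogue of Psc, had a summit with rank 4180, 67 bp downstream of a start. Its replicate ranks of 12583, 6978 and 3403 differ widely, and only replicate 3 had it top-ranked. Psc itself, a RING finger subunit of PRC1, and Sce, which encodes the subunit that ubiquitinates histone H2A, had no thresholded summit.

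Psc and Su(z)2, the other pair of neighbouring paralogues, are divergent genes on chromosome arm 2R with 15506 bp between them. The strongest summits along this stretch lay in the gap. The gap between ph-d and ph-p also held summits, but these were within 1 kb of ph-d and so were counted. The gap between Psc and Su(z)2 held 5 thresholded summits, all over 1 kb from both genes and therefore in none of the counts above. The strongest, 4198 bp beyond Psc, had rank 440 and replicate ranks of 466, 536 and 412. Beside it, 4399 bp beyond Psc, a summit with rank 2848 shared its matched peak in replicates 1 and 3. This summit lay in a non-coding exon stretch of another annotated gene. A cluster with ranks 2971, 2985 and 4617 lay 10014 to 10738 bp beyond Psc. The weakest of the cluster ranked 3816, 18450 and 4067 in the replicates. None of the 5 had the su(Hw) consensus, also with 1 mismatch.

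**Figure D3:**
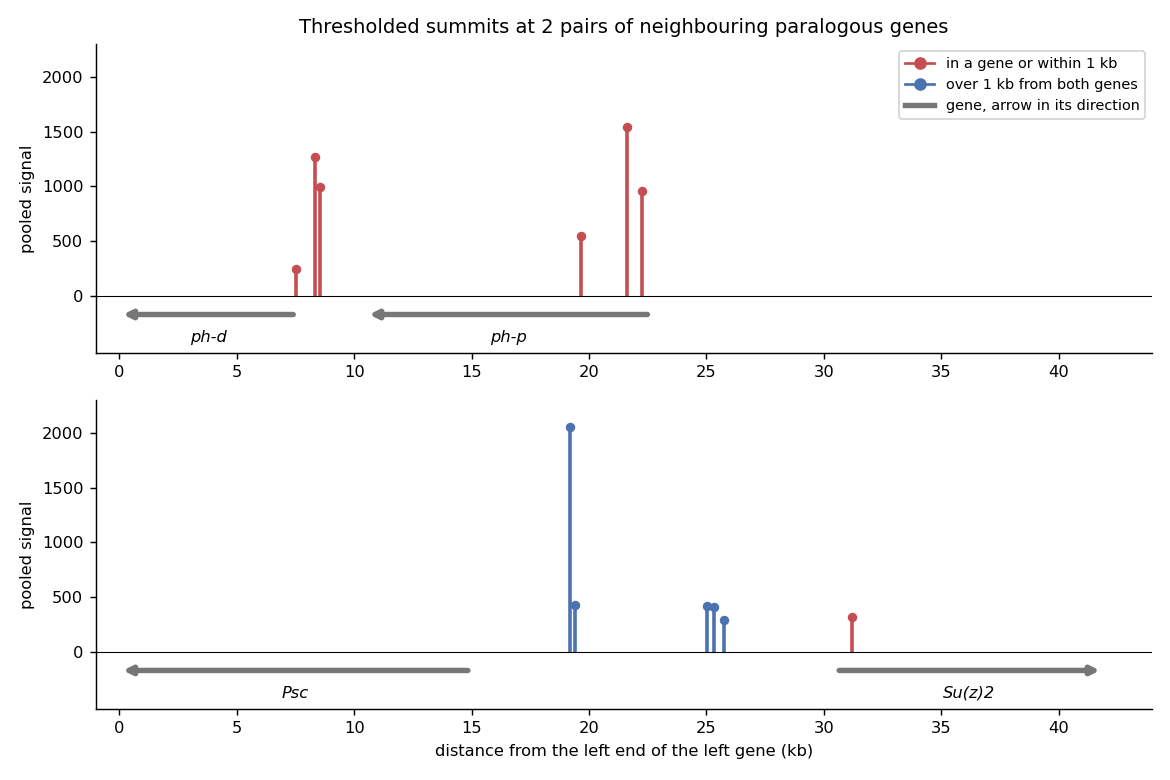
Pooled signal of the thresholded summits along ph-d and ph-p (top) and Psc and Su(z)2 (bottom), by distance from the left end of the left gene, red in a gene or within 1 kb and blue over 1 kb from both genes. The tallest ph-p summit reaches 1541.0, whereas in the lower panel the tallest, at 2054.8, stands between the genes and the only red one, at Su(z)2, reaches 318.7.

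PRC2, which methylates histone H3, had a summit at 2 of its 6 genes. E(z) (3L, 10634575 to 10638130, minus strand), the catalytic methyltransferase, had 1 with rank 1292, 54 bp downstream of its start in a window shared with Cnep1r2, and replicate ranks of 1333, 1433 and 1284. Su(z)12 (3L, 19918242 to 19923462, minus strand), the zinc finger subunit needed for catalysis, had summits with ranks 938 and 1567, 95 bp downstream and 106 bp upstream of its single start, in a window shared with the prefoldin gene Pfdn6. The stronger ranked 915, 998 and 1007 in the replicates, and in replicates 1 and 2 the same peak was also the match of the weaker. The weaker ranked 1667 in replicate 3, whose match was a peak of its own. The WD40 subunit genes esc and escl, the histone chaperone gene Caf1-55 and the PHD finger gene Pcl had no thresholded summit.

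Among the genes of the DNA binding complex PhoRC and of Scm, a SAM and MBT domain protein that links Polycomb complexes, 1 of 4 had a summit. phol, a zinc finger paralogue of pho, had 1 with rank 4220, 75 bp downstream of its start in a window shared with CG3552, but with replicate ranks of 6276, 6879 and 3444. A stronger one, rank 2381, lay 998 bp past the 3′ end of phol, just inside the 1 kb flank, in the promoter windows of CG3448 and ghi. Its assignment to phol rests on the flank alone. pho, Sfmbt and Scm had none. In PR-DUB, which removes ubiquitin from histone H2A, the catalytic subunit gene calypso had a summit with rank 4782, 556 bp upstream of its start and in the windows of CG42837 and Lipt1 too. It ranked 4996, 7524 and 3599, so replicate 2 did not have it top-ranked. Asx, which encodes the partner subunit, had none.

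Of the chromatin remodeller genes, 4 of 5 had a summit, against 37.1% of all protein-coding genes. Of these 4, osa and kis are over 20 kb long, where 66.7% of all genes had one. brm (3L, 15970082 to 15982869, minus strand), the ATPase of the SWI/SNF class complexes, had 1 with rank 740, 130 bp upstream of a start and in a window shared with the GTPase gene Arl1. Its replicate ranks of 624, 751 and 846 lay close together. osa, which encodes the DNA binding subunit of the BAP form of the complex, had 2 summits far inside its 30533 bp (3R, 17687818 to 17718350, minus strand) and none in its promoter window. The summit with rank 688 lay in a non-coding exon stretch 13933 bp from the start and ranked 612, 825 and 684, and the one with rank 696 lay in an intron 17779 bp from the start and ranked 699, 991 and 562. Both were of nearly the same level, with pooled signals of 1421.6 and 1409.2.

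The scaffold subunit gene mor and the CHD class remodeller gene kis had weaker promoter summits that were steady between replicates. That of mor, rank 4206, lay 488 bp upstream of the start and ranked 4447, 4213 and 4089. That of kis, rank 4137, lay 235 bp upstream of a start, outside the gene's 40089 bp, and ranked 4148, 4295 and 4034. kis was the longest of the 31 genes and had no summit in its body. Snr1, a core SWI/SNF subunit gene, had no thresholded summit.

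Among histone methyltransferase and COMPASS genes 3 of 5 had a summit, with 6 in all. trx (3R, 14263358 to 14286903, minus strand, dm6), which encodes the founding methyltransferase of the group, had 4, the most of any of the 31 genes. The strongest, rank 772, lay in an intron 3015 bp from the start, ranked 675, 999 and 763, and its window held GAGAGAG, the sequence bound by the GAGA factor. The summit with the exact consensus, rank 1301, lay in an intron 8293 bp from the start and ranked 1330, 1488 and 1210. Those with ranks 3878 (intron) and 5915 (48 bp downstream of the start) each had the consensus with 1 mismatch. The last ranked 5759, 3638 and 7066, so replicate 3 did not have it top-ranked.

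trr, the methyltransferase gene of the enhancer form of COMPASS, had a summit with rank 2421 that lay 215 bp upstream of its start, in a window shared with the mitochondrial ribosomal protein gene mRpL16. It ranked 2223, 4273 and 2283, lower in replicate 2 than in the others but top-ranked in all 3. The summit counted for ash1, another histone H3 methyltransferase gene, was the strongest of the 29, with a pooled signal of 2745.1 and signals of 794.1, 641.8 and 1299.8 in the replicates. It lay 148 bp past the 3′ end of ash1, 8130 bp from its start, and in the promoter window of the neighbour CG14100. ash1 (3L, 19590773 to 19598755, minus strand) had no summit in its body or in its own promoter window. The shared COMPASS subunit gene ash2 and the histone demethylase gene Utx had no thresholded summit.

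In the last group, skd, which encodes a Mediator kinase module subunit, had a summit with rank 3009, 416 bp upstream of a start in a window shared with Pdss2, and replicate ranks of 2597, 3549 and 3409. fs(1)h, the BET bromodomain gene, has 5 starts and had 3 summits, each in a promoter window of its own. The strongest, rank 4402, ranked 3919, 3904 and 3535. The one with rank 4683 lay between fs(1)h and mys, the gene of a beta integrin, and ranked 4676, 7497 and 4486. That with rank 5765 ranked 14029, 3393 and 5495, so replicate 1 did not have it near the top. kto, which encodes the partner of skd in the kinase module, had its nearest thresholded summit 18554 bp away, the longest such distance among the 31 genes.

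**Figure D4:**
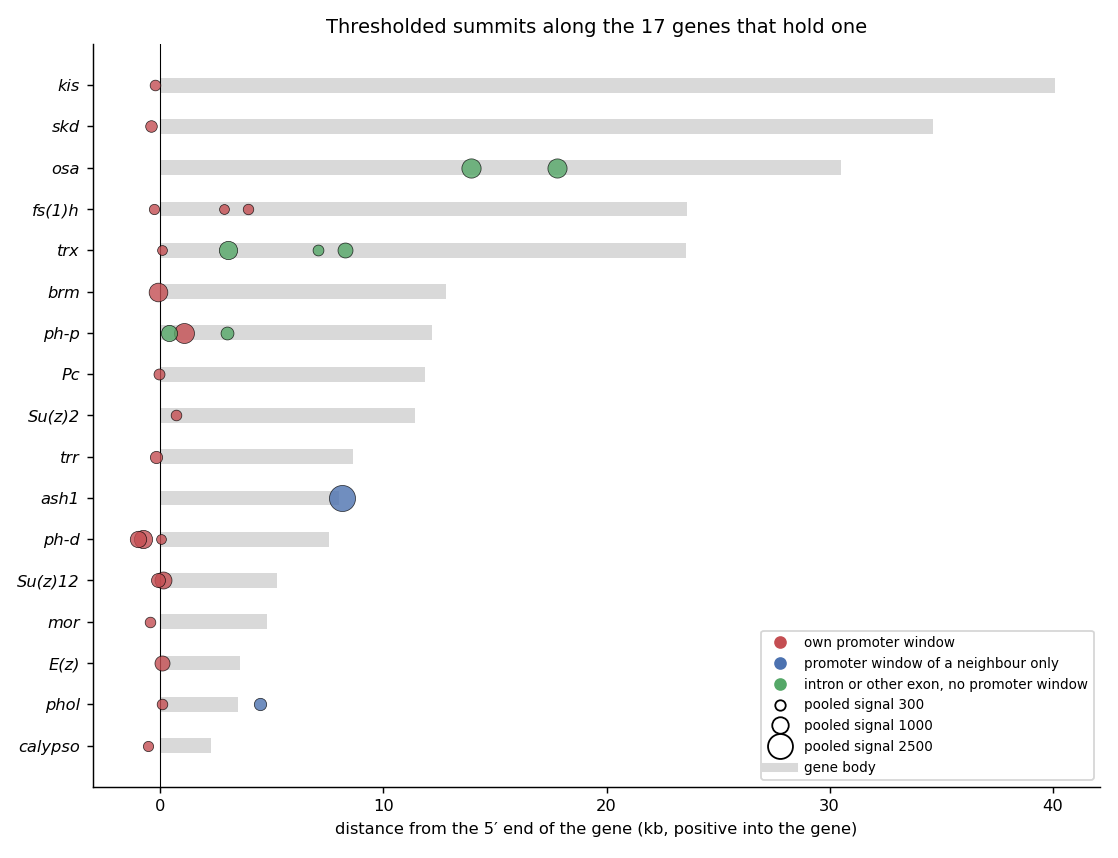
Thresholded summits along the 17 genes with one, by distance from the 5′ end in kb, with dot area growing with pooled signal and dot colour showing the kind of location. Most red dots, in own promoter windows, lie near 0, while osa, trx and ph-p carry green dots inside the gene and the large blue dot of ash1 lies past the gene's end.

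Over the 29 summits, 22 lay in a promoter window of some protein-coding gene (75.9%, exact interval 56.5 to 89.7), against 56.5% of the 5523 thresholded summits at any protein-coding gene. Promoter windows of 2 or more genes held 11 (37.9%, 20.7 to 57.7), against 23.2%. Introns held 5 (17.2%, 5.85 to 35.8), against 32.1%, non-coding exon stretches 2 (6.9%), against 5.34%, and coding exons 0, which allows a share of up to 11.9%, against 1.18%. Of the gene and summit pairs in own promoter windows, 14 of 20 lay upstream of the nearest start of the gene (70%), against 90.9% of 4494 such pairs over all genes. The median distance was 225 bp for these genes and 164 bp for all. The intervals for summits, here and below, treat the 29 as independent. Summits of the same gene, such as those of trx or the ph-d summits that share a peak interval, need not be.

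Support in the replicates was close to that of the list. A top-ranked match in all 3 replicates was found for 22 of the 29 summits (75.9%, 56.5 to 89.7), against 69% of summits at any gene. A further 5 had it in 2 replicates, 2 had it in 1 (at phol and Su(z)2), and none had it in no replicate. The authors derived the thresholded list from the same 3 replicates, and such support follows in part from that. Taken alone, the strongest 6127 peaks of replicates 1, 2 and 3 lay at 16, 18 and 19 of the 31 genes, against 36.9%, 37.8% and 36.5% of all protein-coding genes. The 7 summits not top-ranked in all replicates were among the weaker, with pooled ranks of 4180 or more.

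The windows were searched for the su(Hw) consensus. Allowing 1 mismatch, 4 of the 29 summits had it within 100 bp (13.8%, 3.89 to 31.7), against 19.6% of summits at any gene, a value that lies in the interval. Of these 4, 3 belonged to trx and 1 to ph-p, so 15 of the 17 genes with a summit had none (88.2%), against 76.7% of all genes with a summit. Outside promoter windows the count was 3 of 7 summits, against 32% of all thresholded summits there, and inside them 1 of 22, against 11.5%. The 12-base words were TATTGCATACTT at trx, with its centre 18.5 bp from the summit, TATTGAATACTT at ph-p, 14.5 bp away, and TATAGCATACTT and CACTGCATACCA at the weaker trx summits, 45.5 and 83.5 bp away. The core TGCATA alone was at 4 summits (13.8%), against 22%.

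Pairs of CGATA, on either strand and within 40 bp of each other, were at 4 summits (13.8%, 3.89 to 31.7), against 9.69% of summits at any gene. They lay at Pc, trr and both summits of phol, all in promoter windows, where such pairs were at 15.8% of all thresholded promoter summits. Overlapping matches, as in the single word at trr, counted as pairs in all these shares. GAGAGAG on either strand was at 1 summit, that of trx, against 4.25%. GCCAT on either strand, the core of the sequence bound by the proteins that pho and phol encode, was at 8 summits (27.6%), against 28.3%. A match of these letters is a description of the window and shows no binding by the factor named.

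**Figure D5:**
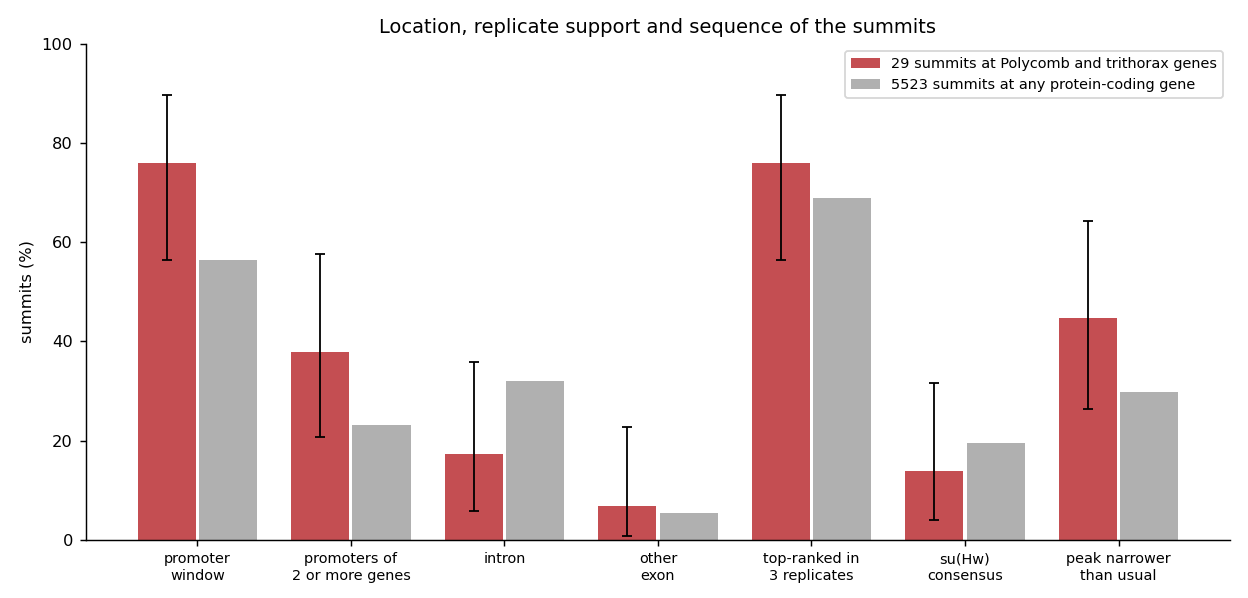
Percent of the 29 summits at Polycomb and trithorax genes (red, with exact binomial 95% intervals) and of the 5523 thresholded summits at any protein-coding gene (grey) by location, replicate support, su(Hw) consensus with up to 1 mismatch, and peak width below the commonest width of 524 bp. Promoter windows stand at 75.9% and 56.5%, and the interval of each red bar reaches the grey value beside it.

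The commonest peak interval, 524 bp, was that of 59.8% of the thresholded list. Of the 29 summits 13 lay in narrower intervals (44.8%, 26.4 to 64.3), down to 232 bp at the intronic summit of ph-p, against 29.9% of summits at any gene. All 13 ranked 2055 or better. The ph-d summits with ranks 773 and 1021 are both counted, though they share 1 interval of 522 bp, close to the commonest width.

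For the 14 genes without a thresholded summit, the nearest one lay 1647 bp (ash2) to 18554 bp (kto) from the gene. The unthresholded pooled list of 30000 peaks had a peak at 9 of these 14, with ranks from 6867 at Utx, 8137 at Asx and 8177 at Psc to 17218 at Sfmbt, and had none at Sce, pho, Scm, ash2 and kto. Over all 31 genes that list had a peak at 26, against 65.6% of all protein-coding genes. The share among all genes without a thresholded summit was not computed. Sce was the only one of the 31 genes with no peak in any of the 4 lists. The absence of a thresholded peak shows that none passed at an unknown depth, not that su(Hw) was absent.

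In single replicates, some of these genes had a strong peak. Psc had a peak in an intron, 5085 bp from a start, at rank 2390 in replicate 2 and, 5096 bp from it, at rank 2016 in replicate 3, and none at that place in replicate 1. The nearest summit of the pooled list was 3051 bp away. Sfmbt had one 88 bp upstream of a start in replicate 2 alone, at rank 2757, with the consensus at 1 mismatch. Utx had one at ranks 5529 and 4567 in replicates 2 and 3, which was the pooled peak of rank 6867. Over all 31 genes, the strongest peak was within the first 6127 ranks in all 3 replicates at 14 genes (45.2%), against 29.8% of all protein-coding genes, in 2 at 4 (12.9%, against 7.04%), in 1 at 3 (9.68%, against 7.6%) and in none at 10 (32.3%, against 55.5%). These 14 leave out phol, which is among the 15 genes with a summit top-ranked in all replicates. The replicate 2 match of its summit past the 3′ end lay beyond the 1 kb flank.

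Another 40 genes of the same systems, listed by symbol, served to place these values. A summit was present at 25 of the 40 (62.5%), against 37.1% of all protein-coding genes, and in their own promoter window at 14 (35%), against 26.4%. Their median length was 7149.5 bp and the median rank of their strongest summit 2794. The strongest was in the promoter window of corto, which encodes a chromodomain protein, with rank 384 and replicate ranks of 435, 360 and 382. Trl, the gene of the GAGA factor, had 4 summits, the strongest in an intron with rank 449 and replicate ranks of 361, 663 and 422. Kdm2, a histone demethylase gene, followed at rank 721, Dsp1, an HMG box gene, at 1020, nej, the gene of the acetyltransferase CBP, at 1270, grh at 1970, tna at 2019 and lid, a histone demethylase gene, at 2441.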

How the data were processed

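Peak lists of su(Hw)-eGFP ChIP-seq from 3 biological replicates of 0 to 24 hour embryos were analysed. Per the file notes, the authors deposited narrowPeak lists for each replicate, pooled, and thresholded by the irreproducible discovery rate (IDR). Fragments were 200 to 800 bp long, per the labels. The signal deposited by the authors is the peak caller's own value per peak. It has no defined scale, so peaks were ranked and compared by it in their own list alone. For the peak caller, aligner, IDR threshold and read depth nothing is stated (not given in the sources used here), and the control was not analysed here. Each list other than the thresholded one was fixed at 30000 peaks, so its length says nothing of depth.

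The thresholded list held exactly the 6127 strongest peaks of the pooled list. No 2 replicate lists shared an identical peak. Lists of the dm3 build were not used, and no coordinates were converted. Genes came from Ensembl release 115 on genome Release 6, matched by symbol or synonym, and sequences from the RefSeq genome of that release. Classes were given in the order promoter, coding exon, non-coding exon, intron and intergenic. Motifs were searched on both strands within 100 bp of the summit. Python 3.11.15, numpy 2.4.6, scipy 1.17.1 and matplotlib 3.10.9 were used, and the functions were tested on simulated data. Intervals are exact binomial (Clopper-Pearson) 95% intervals.

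With 1 group there was no contrast, and no list was tested. The 31 genes and the 40 further genes were chosen with earlier results of these data known. All 31 are named, up to 8 of the 40 by strongest summit, and neighbours where their promoter window holds a summit. Sequences follow rank, with and without the consensus. The peaks found in single replicates, the gap between Psc and Su(z)2 and the trr window were chosen after their values were seen. So were the peak widths, the positions relative to starts and the cuts by rank. Alternatives changed the flank, promoter window, peak set, matching distance and motif window, and left out each replicate.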

Additional observations from a re-analysis of the deposited data

How the results depend on the processing

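Of the 31 genes, 17 had a summit in the main setting. The count was 9 without the 1 kb flank (14.3% of all protein-coding genes), 25 with a 5 kb flank (59.2%), 11 with the stronger 50% of the list (21.8%) and 26 with the whole unthresholded pooled list (65.6%). The 8 genes lost without the flank were Pc, ash1, brm, calypso, kis, mor, skd and trr, whose summits lie outside the gene. Summits in own promoter windows were at 7 genes with the stronger 50% of the list (13.8%), against 15 with the whole list. The mean number of summits per gene, 0.935 (0.605 over all protein-coding genes), was 0.516 (0.258) without the flank and 1.84 (1.2) with 5 kb. Over whole replicate lists 100% of the 29 summits had a match in all 3 replicates (97.2% of the list), and with an exact match required the consensus was at 3.45% (7.05%). Keeping only summits top-ranked in both other replicates, as each replicate was left out in turn, gave 15 to 16 genes with a summit (30.3% to 31.1% of all protein-coding genes) and 11 to 12 with one in their own promoter window (20.4% to 21.1%). It gave 79.3% to 86.2% of summits top-ranked (74.8% to 78.5% of the list), 12% to 17.4% with the consensus (23.5% to 25.2%) and 69.6% to 72% in a promoter window (50.1% to 50.9%). The bracketed shares of summits in this paragraph are over the thresholded list, not over summits at any gene as above. In the main setting the list gave 69.3% top-ranked in all 3 replicates, 21.6% with the consensus and 50.9% in a promoter window. Su(z)2 lost its summit whichever replicate was left out, and calypso without replicate 1 or replicate 3. Of 41 values over the alternative settings, 33 stayed within 1.5 times the main count or within the interval of the main share, and the other 8 are given above. The depth is unknown, so weak binding below the threshold cannot be judged, and a summit within 1 kb of a gene may belong to a neighbour. No paired analysis was possible because all samples form 1 group.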

Other observations

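The intronic peak of Psc seen in replicates 2 and 3 but not in the pooled list was of a rare kind. Of 4763 places where both of these replicates had a peak within the first 6127 ranks, 41 (0.861%) had no pooled peak within 200 bp, and this was the only one of the 41 at a Polycomb or trithorax gene. For replicates 1 and 2 the count was 69 of 4773 (1.45%) and for replicates 1 and 3 it was 40 of 4905 (0.815%), with none at these genes. How the pooled list was made is not given in the sources used here, and why the peak is missing from it was not tested. Pcl had a peak 946 bp upstream of its start with ranks of 7564, 5292 and 11460 in replicates 1, 2 and 3, which the pooled list ranks at 7252, below the thresholded part.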
